A study of Homo sapiens with 8 samples.

Results

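The 9 genes described here encode the collagenous network, the proteoglycans and the linker proteins of basement membranes: the type IV collagen chains COL4A1, COL4A2, COL4A5 and COL4A6, collagen XVIII (COL18A1), perlecan (HSPG2), agrin (AGRN) and the nidogens NID1 and NID2. They were selected by name out of the 57736 gene IDs of the deposited count table, with their values in all 8 libraries already known. Their differences between groups are therefore given as a description, with no p-value. Of the 9 genes, 7 passed the filter on low counts and 2 (COL4A6 and NID1) did not.

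All libraries came from RMG1, an established human line of ovarian clear cell carcinoma. Total RNA was sequenced in 4 groups of 2 libraries. Wild-type cells are labelled wild type for ARID1A and for CAPH2, with no shRNA named. ARID1A-knockout cells (CRISPR) are labelled wild type for CAPH2. Control cells carried shControl and are wild type for both genes. CAPH2-knockdown cells carried shCAPH2 and are wild type for ARID1A. ARID1A belongs to the SWI/SNF chromatin remodeller. CAPH2, encoded by NCAPH2, belongs to condensin II, a complex that folds chromosomes. The labels do not say whether the knockout cells were a clone or a pool, how many shRNAs were used, or whether the 2 libraries of each group were grown as different cultures. Every p-value therefore reflects spread between libraries that may be technical.

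Libraries held 24559547 to 37378691 counts, and levels are given as CPM, scaled with trimmed means of M values, in which a single count was 0.0261 to 0.0413. ARID1A stood at 8.80 and 12.1 CPM in wild-type and at 6.66 and 5.61 CPM in knockout libraries. NCAPH2 stood at 24.0 and 25.8 CPM in control and at 8.98 and 8.74 CPM in knockdown libraries. It was also lower in knockout (22.4 ± 2.05 CPM, SD, n = 2) than in wild-type cells (28.4 ± 2.27 CPM). Epithelial markers (5 genes) summed to 2634 to 3105 CPM in every library. The 4 ovarian clear cell markers used summed to 2401 to 2589 CPM in wild-type, 1323 to 1392 CPM in knockout, 3276 to 3319 CPM in control and 4075 to 4145 CPM in knockdown libraries. Markers of stromal cells, which make much basement membrane in tissue, were near 0. All 8 fibroblast genes were under 1 CPM in every library, with COL1A2 and COL3A1 at 0, and they summed to 0.959 to 1.04 CPM in knockout and 0.290 to 0.496 CPM in the other libraries. The 6 endothelial genes matched (all of the list but PECAM1) were under 1 CPM, with KDR, CLDN5 and ERG at 0, and they summed to 0.157 to 0.219 CPM in knockout and 0.504 to 1.03 CPM in the other libraries. Of 6 leukocyte genes, 4 were under 1 CPM in every library, with CD3E at 0. The leukocyte sum was 1.30 to 2.98 CPM in wild-type and 4.05 to 5.15 CPM in knockout libraries, against 2.79 to 3.85 CPM in control and 2.40 to 3.06 CPM in knockdown libraries. The part of such cells, or of the clear cell markers, in the results was not tested.

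As background, basement membranes are thin sheets of matrix under epithelia and around vessels. Type IV collagen chains wind into trimers, most widely a trimer in which the chain of COL4A1 outnumbers that of COL4A2, and trimers join end to end into a net. A net of laminin lies beside it, and nidogens and perlecan bridge both. Perlecan, agrin and collagen XVIII carry heparan sulfate chains that bind growth factors, and the end of collagen XVIII can be released as endostatin. Collagen IV genes lie in head-to-head pairs, each pair read in opposite directions from a shared stretch of DNA.

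That arrangement is shown first, because genes of a pair differed in level and in their differences between groups. The sequences are from RefSeq (GRCh38.p14), where 8 of the 9 genes, all but AGRN, were matched. The start of COL4A1 (minus strand, chromosome 13, position 110307157) and that of COL4A2 (plus strand, position 110307284) are 126 bases apart. The starts of COL4A6 and COL4A5 on chromosome X are 379 bases apart, or 1415 bases for the second COL4A6 start. Below are the whole interval between COL4A1 and COL4A2, the 250 bases before the start of COL4A5, which run toward COL4A6, and, for the most changed proteoglycan gene and for the contrasting nidogen genes, the 250 bases before HSPG2, NID1 and NID2. Capitals mark matches to a GC box (GGGCGG) or a CCAAT box (CCAAT) on either strand. Each sequence reads 5′ to 3′ on the strand given.
COL4A1-COL4A2 interval, chr13:110307158-110307283, plus strand: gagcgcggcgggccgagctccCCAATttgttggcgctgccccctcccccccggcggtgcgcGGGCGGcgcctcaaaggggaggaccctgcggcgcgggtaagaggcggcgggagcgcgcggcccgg
COL4A5 upstream, chrX:108439588-108439837, plus strand: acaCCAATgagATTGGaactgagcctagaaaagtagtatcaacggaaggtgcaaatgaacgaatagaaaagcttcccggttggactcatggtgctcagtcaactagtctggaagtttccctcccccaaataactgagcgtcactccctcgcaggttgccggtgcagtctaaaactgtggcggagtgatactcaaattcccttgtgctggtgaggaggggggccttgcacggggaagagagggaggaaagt
HSPG2 upstream, chr1:21937311-21937560, minus strand: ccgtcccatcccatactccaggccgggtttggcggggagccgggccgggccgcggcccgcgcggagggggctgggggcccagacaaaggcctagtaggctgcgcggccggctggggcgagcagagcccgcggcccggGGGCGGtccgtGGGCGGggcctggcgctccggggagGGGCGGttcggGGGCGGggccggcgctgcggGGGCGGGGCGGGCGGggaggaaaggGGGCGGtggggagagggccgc
NID1 upstream, chr1:236065091-236065340, minus strand: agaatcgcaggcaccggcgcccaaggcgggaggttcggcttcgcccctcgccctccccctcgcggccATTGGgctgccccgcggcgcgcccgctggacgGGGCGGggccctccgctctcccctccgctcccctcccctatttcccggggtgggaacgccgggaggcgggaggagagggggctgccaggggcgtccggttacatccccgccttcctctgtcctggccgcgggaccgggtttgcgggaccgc
NID2 upstream, chr14:52069060-52069309, minus strand: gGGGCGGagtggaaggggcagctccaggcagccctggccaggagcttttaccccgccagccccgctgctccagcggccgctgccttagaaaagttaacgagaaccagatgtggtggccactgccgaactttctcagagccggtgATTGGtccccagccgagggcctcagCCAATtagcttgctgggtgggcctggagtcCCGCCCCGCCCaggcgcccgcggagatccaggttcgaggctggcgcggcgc

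The COL4A1-COL4A2 interval was 80.2% G and C and held 1 GC box and 1 CCAAT box. The stretch before COL4A5 was 51.2% G and C and held 2 CCAAT boxes and 0 GC boxes. The stretch before HSPG2 held 8 GC boxes, of which some overlap each other, and 0 CCAAT boxes. NID1 had 1 match to each motif and NID2 had 3 GC boxes and 2 CCAAT boxes. Over 35116 promoter windows of 300 bases (250 before and 50 after the start), 45.0% held a GC box and 34.6% a CCAAT box. The printed stretches are shorter than these windows. In its 300-base window HSPG2 held 10 GC boxes, and NID2 held 4. Among the members' windows, the 1 match to a TATA box (TATAAA) was in the second COL18A1 window, against 11.5% of all windows with a match. The AP-1 motif TGANTCA matched in 0 of the members' windows, against 7.71% of all. Both strands were searched for each motif. A match is a string of letters and says nothing about binding.

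In ARID1A-knockout cells, COL4A1, COL4A2, COL4A5 and NID2 stood 1.76-fold to 2.96-fold above wild type, while COL18A1 stood 2.64-fold below. In CAPH2-knockdown cells, HSPG2 stood 8.55-fold above the control, COL4A1 1.42-fold and COL4A2 1.26-fold above, and NID2 differed from the control by less than the spread of the control libraries. Genes were called where the quasi-likelihood test of edgeR gave an adjusted p (Benjamini-Hochberg) under 0.05. Of the 7 genes tested, 4 were called higher and 2 lower in the knockout, where 16.8% of the 16657 genes tested were called higher and 17.8% lower. In the knockdown 3 were called higher and 0 lower, where 7.62% of all genes were called higher and 8.22% lower. Between shRNA control and wild type 5 were called higher and 0 lower, where 9.13% of all genes were called higher and 10.1% lower. The values were known when the genes were selected, so nothing is read from these counts. COL4A1 and COL4A2 stood higher in all 3 comparisons, which share libraries. NID2 stood above the wild type in the knockout and in the control.

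**Figure D1:**
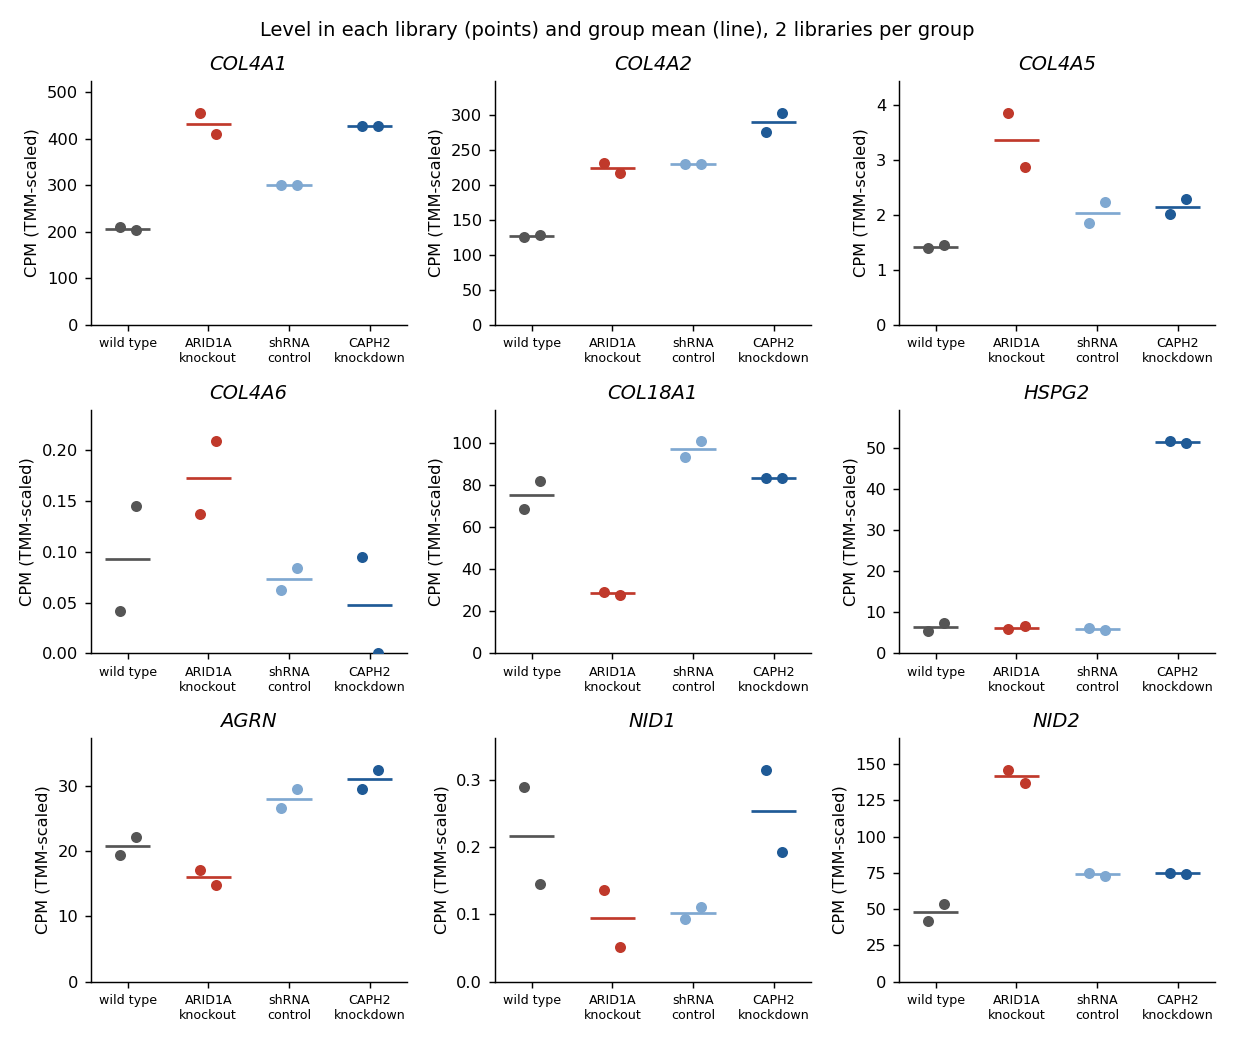
CPM after scaling (vertical axes, linear, from 0) of the 9 genes in each library, with wild-type, ARID1A-knockout, shRNA-control and CAPH2-knockdown cells along the horizontal axes. Points are libraries and lines are means of 2. HSPG2 lies between 5.33 and 7.46 CPM in 6 libraries and above 51 CPM in both knockdown libraries, and COL18A1 is lowest in the knockout.

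COL4A1 and COL4A2 form the main type IV collagen of most basement membranes. COL4A1 stood at 209 and 204 CPM in wild-type, 456 and 409.5 CPM in knockout, 301 and 301 CPM in control, and 428 and 428 CPM in knockdown libraries. Both knockout libraries lay above both wild-type libraries, both knockdown libraries lay above both control libraries, and the control libraries lay above the wild type. The log2 fold change was 1.07 (SE 0.06) for knockout minus wild type and 0.51 (SE 0.06) for knockdown minus control. The knockout mean (433 ± 32.96 CPM, SD, n = 2) and the knockdown mean (428 ± 0.135 CPM) differed by less than the spread of the knockout libraries.

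COL4A2 stood at 126 and 128 CPM in wild-type, 231 and 216 CPM in knockout, 229.6 and 229.7 CPM in control, and 275 and 302 CPM in knockdown libraries. The knockout libraries lay above the wild type, and the control libraries fell between the 2 knockout values. The log2 fold change was 0.82 (SE 0.06) in the knockout and 0.33 (SE 0.06) in the knockdown. The means of knockout (224 ± 10.5 CPM) and control (229.6 ± 0.0409 CPM) differed by less than the spread of the knockout libraries. For COL4A1 the control mean (301 ± 0.268 CPM) lay below both knockout libraries.

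The balance between these chains moved with the group. Per length of the longest transcript (6616 bases for COL4A1, 6494 for COL4A2), COL4A2 stood at 0.611 and 0.641 of COL4A1 in wild-type libraries, 0.516 and 0.538 in knockout, 0.777 and 0.779 in control, and 0.654 and 0.720 in knockdown libraries. No library of a group overlapped with those of another group. The ratio was lowest in the knockout and highest in the control, so the genes on either side of the printed interval did not differ between groups by the same factor. Summed over the 6 collagen IV genes, the level was 52.3 ± 0.505 CPM per kilobase in wild-type, 101.0 ± 6.79 in knockout, 83.6 ± 0.165 in control and 113.4 ± 2.82 in knockdown cells. COL4A1 and COL4A2 made up 59.7% ± 0.500 and 37.4% ± 0.946 of that sum in wild-type cells and 64.7% ± 0.579 and 34.1% ± 0.692 in knockout cells.

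COL4A5 and COL4A6 encode chains of rarer networks, in kidney and in smooth muscle and skin. COL4A5 stood at 1.41 and 1.45 CPM in wild-type, 3.86 and 2.87 CPM in knockout, 1.86 and 2.23 CPM in control, and 2.02 and 2.29 CPM in knockdown libraries. Both knockout libraries were above all 6 others, and control and knockdown libraries overlapped. The log2 fold change was 1.24 (SE 0.26) in the knockout and 0.07 (SE 0.25) in the knockdown. Per length, COL4A5 was at 0.421% ± 0.0131 of the collagen IV sum in wild-type cells. COL4A6 held 1 to 8 counts in 7 libraries and 0 in knockdown library 2. Its sum over a group was 5 counts in wild-type, 13 in knockout, 5 in control and 3 in knockdown libraries. In CPM over a group, the exact 95% Poisson interval was 0.0313 to 0.225 in wild-type and 0.0926 to 0.297 in knockout cells, which overlap. Overlap of such intervals is not a test of a difference, and with so few counts no conclusion is drawn. Such intervals cover counting error only, since reads copied by PCR are not independent molecules. Of the COL4A5-COL4A6 pair, COL4A5 was the gene with most of the transcript: COL4A6 stood at 0.0649 of it per length in wild-type cells (counting interval 0.0205 to 0.158) and at 0.0213 in knockdown cells (0.00435 to 0.0637). With median transcript lengths, the mean ratio over libraries was 0.0220 in place of 0.0621 in wild-type and 0.00796 in place of 0.0225 in knockdown cells, so its level rests on the length chosen.

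The remaining collagen IV pair, COL4A3 and COL4A4 on chromosome 2, which make the network of the kidney filter with COL4A5, is not among the 9 genes and gives a comparison. Their starts are 418 bases apart. COL4A3 stood at 3.88 ± 0.881 CPM in wild-type, 1.97 ± 0.200 in knockout, 7.93 ± 1.02 in control and 17.4 ± 0.715 CPM in knockdown cells, and COL4A4, named after its values were seen, at 7.79 ± 1.55, 3.85 ± 0.680, 14.5 ± 0.297 and 17.4 ± 0.849 CPM. In the knockout COL4A3 fell (log2 fold change −0.97, SE 0.20, edgeR adjusted p = 0.00258), as did COL4A4 (−1.01, SE 0.16, edgeR adjusted p = 0.000562), whereas COL4A1, COL4A2 and COL4A5 stood above wild type. In the knockdown COL4A3 rose (1.13, SE 0.15, edgeR adjusted p = 0.000396), and COL4A4 did not pass the test (0.27, SE 0.14, edgeR adjusted p = 0.235). The ratio of COL4A4 to COL4A3 per length was 1.49 ± 0.161 in control and 0.811 ± 0.00613 in knockdown cells, or 0.302 and 0.165 with median transcript lengths, so its level rests on the length chosen, and it was lower in the knockdown with both lengths.

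Perlecan, the product of HSPG2, is a very large proteoglycan that ties the laminin and collagen nets together. HSPG2 stood at 5.33 and 7.46 CPM in wild-type, 5.84 and 6.61 CPM in knockout, 6.28 and 5.78 CPM in control, and 51.7 and 51.4 CPM in knockdown libraries. The knockdown libraries lay far above the other 6, which overlapped across their groups. The log2 fold change was 3.10 (SE 0.13) in the knockdown and −0.05 (SE 0.15) in the knockout. Among the members tested, HSPG2 had the widest range of group means, 3.08 on the log2 CPM scale, followed by COL18A1 with 1.77 and NID2 with 1.57. In knockout cells the sign of the HSPG2 difference turned on leaving out wild-type library 2 (0.22) or knockout library 1 (0.04).

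**Figure D2:**
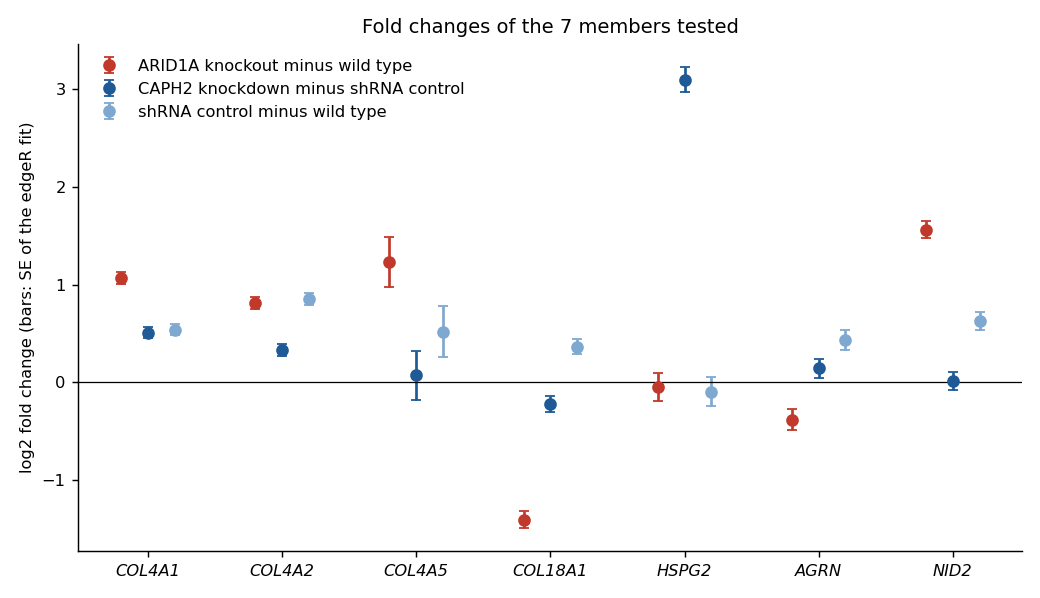
Log2 fold changes (vertical axis) of the 7 genes tested, for ARID1A knockout minus wild type, CAPH2 knockdown minus shRNA control and shRNA control minus wild type. Bars are standard errors of the edgeR fit to 8 libraries. HSPG2 in the knockdown (3.10) is the highest value and COL18A1 in the knockout (−1.40) the lowest.

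Collagen XVIII and agrin are the other heparan sulfate carriers. COL18A1 stood at 68.7 and 81.8 CPM in wild-type, 29.4 and 27.6 CPM in knockout, 93.3 and 100.9 CPM in control, and 83.4 and 83.5 CPM in knockdown libraries. Both knockout libraries lay below all others. The log2 fold change was −1.40 (SE 0.08) in the knockout and −0.22 (SE 0.08) in the knockdown. AGRN stood at 19.3 and 22.1 CPM in wild-type, 17.2 and 14.8 CPM in knockout, 26.5 and 29.5 CPM in control, and 29.5 and 32.4 CPM in knockdown libraries. Knockout libraries lay below the wild type (−0.38, SE 0.11), by −0.28 without wild-type library 2 and by −0.27 without knockout library 2. Control and knockdown libraries differed by 0.14 (SE 0.10).

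The make-up of the proteoglycan cores differed between groups. Per length, COL18A1 made up 77.9% ± 0.174 of the 3 cores in wild-type and 77.8% ± 0.115 in control cells, but 62.5% ± 0.716 in knockout and 61.9% ± 0.773 in knockdown cells. In the knockout the sum of the cores stood at 6.92 ± 0.380 CPM per kilobase against 14.7 ± 1.78 in the wild type, and AGRN took 31.2% ± 1.61 against 19.1% ± 0.524. In the knockdown the sum was 20.5 ± 0.277 against 19.0 ± 1.08 in the control, and HSPG2 took 17.6% ± 0.320 against 2.23% ± 0.258. The share of COL18A1 was below that of the wild type and the control in both the knockout and the knockdown. In the knockout the COL18A1 level was lower than in the wild type. In the knockdown HSPG2 stood above the control (log2 fold change 3.10) and COL18A1 below it (−0.22, SE 0.08).

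**Figure D3:**
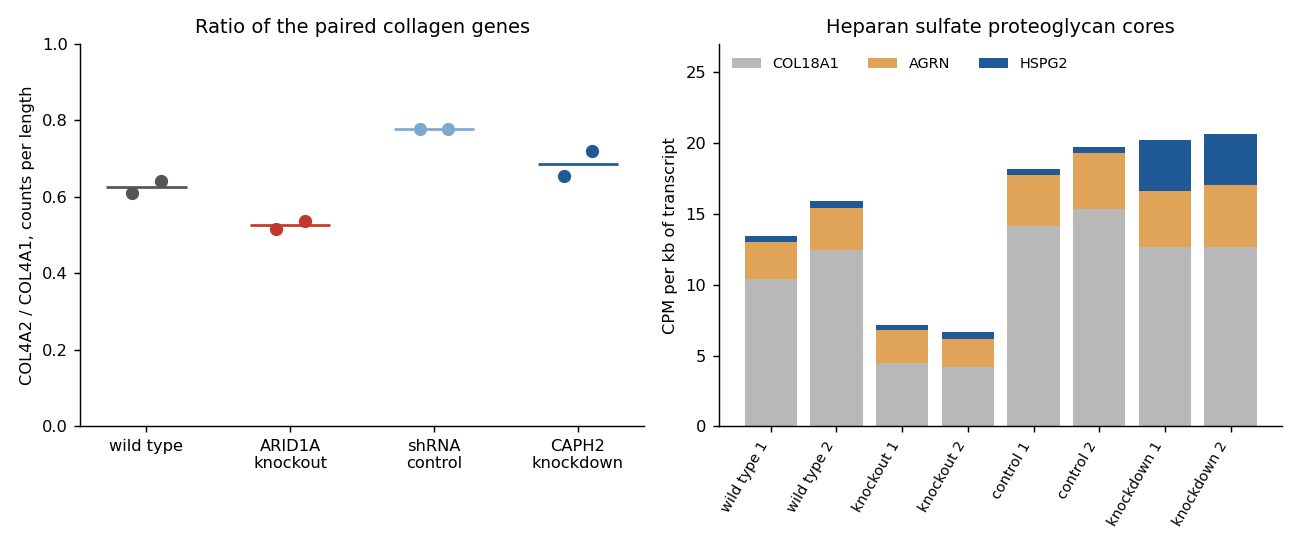
Left, ratio of COL4A2 to COL4A1 in counts per transcript length (vertical axis from 0) in each library (points) with the mean of 2 (lines). Right, stacked bars of CPM per kilobase of transcript of COL18A1, AGRN and HSPG2 in each of 8 libraries. The ratio runs from 0.516 in a knockout to 0.779 in a control library, and the knockout bars are the lowest.

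Nidogens bind laminin and collagen IV. NID2 stood at 42.1 and 53.5 CPM in wild-type, 146 and 137 CPM in knockout, 74.9 and 72.9 CPM in control, and 74.9 and 74.3 CPM in knockdown libraries. Both knockout libraries lay above all others, the control libraries lay above the wild type, and control and knockdown libraries overlapped. The log2 fold change was 1.56 (SE 0.09) in the knockout and 0.01 (SE 0.09) in the knockdown. NID1, its paralog, held 2 to 10 counts in a library. In CPM over a group, NID1 stood at 0.212 (exact 95% Poisson interval 0.106 to 0.380) in wild-type, 0.0936 (0.0376 to 0.193) in knockout, 0.103 (0.0413 to 0.212) in control and 0.255 (0.146 to 0.414) in knockdown cells. All 4 intervals overlap, which is not a test of a difference. Per length NID2 exceeded NID1 276-fold in wild-type cells (counting interval 154 to 555), and 1841-fold in knockout cells (893 to 4581), so nearly all nidogen transcript was NID2 in these libraries.

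Per length, the order of levels in wild-type cells was COL4A1 (31.3 ± 0.564 CPM per kilobase), COL4A2 (19.6 ± 0.306), COL18A1 (11.4 ± 1.41), NID2 (9.93 ± 1.67), AGRN (2.80 ± 0.263), HSPG2 (0.446 ± 0.105), COL4A5 (0.220 ± 0.00474), NID1 (0.0370 ± 0.0174) and COL4A6 (0.0138 ± 0.0108). The libraries of COL18A1 and NID2 overlapped. Both NID1 libraries lay above both COL4A6 libraries, on 11 and 5 counts in all. In knockout cells NID2 (29.4 ± 1.31) stood just below COL4A2 (34.4 ± 1.62) and far above COL18A1 (4.32 ± 0.188). In knockdown cells HSPG2 (3.60 ± 0.0165) came close to AGRN (4.18 ± 0.280). These per-length levels rest on the longest annotated transcript, and the transcripts in use were not measured.

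The shRNA control was also set against the wild type, a comparison for which the labels give no purpose. It shares its wild-type libraries with the knockout comparison and its control libraries with the knockdown comparison, and its values were among those known when the genes were selected. COL4A2 stood 0.85 (log2, SE 0.06) above the wild type, NID2 0.63 (SE 0.09) and COL4A1 0.54 (SE 0.06). AGRN stood 0.43 above (SE 0.10), or 0.34 without wild-type library 1 and 0.35 without control library 2. COL18A1 stood 0.37 above (SE 0.08), or 0.31 without control library 2. Of the 5 members called higher here, 3 were called without control library 2. The difference was 0.52 (SE 0.26) for COL4A5 and −0.09 (SE 0.15) for HSPG2. For COL4A2, the difference between these reference groups (0.85) was as large as that between knockout and wild type (0.82). The part of the vector, of culture and of sequencing in that difference cannot be told apart here.

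The genes on either side of each member along the chromosome were read in the same comparisons, up to 20 tested genes on each side. Around COL4A1 and COL4A2, the median of 40 tested neighbours was −0.12 in the knockout and −0.06 in the knockdown, so that COL4A1 stood 1.18 and 0.56 above its neighbours. IRS2, an insulin receptor substrate, was the nearest tested gene on the COL4A1 side, and was named after its values were seen. It fell in the knockout (−0.73, SE 0.08, edgeR adjusted p = 2.9e-05) and in the knockdown (−0.59, SE 0.07, edgeR adjusted p = 0.000195), opposite in sign to COL4A1 and COL4A2. In the control against the wild type IRS2 rose (1.04, SE 0.07, edgeR adjusted p = 6.74e-06), and COL4A1 and COL4A2 stood higher there too. RAB20, the nearest tested gene on the COL4A2 side, did not pass in any comparison (knockout −0.42, SE 0.25, knockdown 0.56, SE 0.24). Of the 40 neighbours, 7 rose and 9 fell in the knockout, where 16.8% of all genes were called higher and 17.8% lower. Nothing is read from these counts. The neighbour median in the knockout was 0.18 for NID2, 0.03 for COL4A5, −0.16 for both AGRN and COL18A1 (33 neighbours for the latter) and −0.30 for HSPG2. AGRN stood 0.22 below its neighbours after subtraction and HSPG2 0.25 above.

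In the knockdown, 4 of the 40 tested neighbours of HSPG2 rose and 3 fell, where 7.62% of all genes were called higher and 8.22% lower. Nothing is read from these counts, and the neighbours named here were chosen after their values were seen. USP48, a deubiquitinase, rose by 0.51 (SE 0.06, edgeR adjusted p = 0.000228) and CDC42, a regulator of the actin cytoskeleton, by 0.50 (SE 0.06, edgeR adjusted p = 9.88e-05). ECE1, an endothelin-converting enzyme (−0.43, SE 0.07, edgeR adjusted p = 0.000975), and EPHB2, an ephrin receptor (−0.49, SE 0.07, edgeR adjusted p = 0.000379), fell. In the order of tested genes, USP48 and CDC42 lie at places −1 and 3 from HSPG2, and ECE1 and EPHB2 at −5 and 5. TMCO4 at place −18 also rose (0.45, SE 0.11, edgeR adjusted p = 0.0136). LUZP1 at place 7 fell (−0.19, SE 0.05, edgeR adjusted p = 0.0395). No pattern with distance is read from these places. CELA3A, a pancreatic elastase gene, held 0 counts in control and 105 in knockdown libraries (76 and 29), at least 38.0-fold higher (floor: 3 counts in the control group). It held 0 counts in wild-type and 8 and 6 in knockout libraries. Only the knockdown libraries carried it past the filter on low counts, which favoured its call among the rises. Its neighbour CELA3B held 0 and 28 counts, at least 10.1-fold higher, and since these genes are near-identical copies their split is uncertain. WNT4 held 1 count in control and 14 in knockdown libraries. The median over the neighbours was 0.08, and HSPG2 stood 3.01 above it. How far reads of HSPG2 run into its neighbours or come from the other strand was not tested, and the strand setting is not given in the sources used here.

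**Figure D4:**
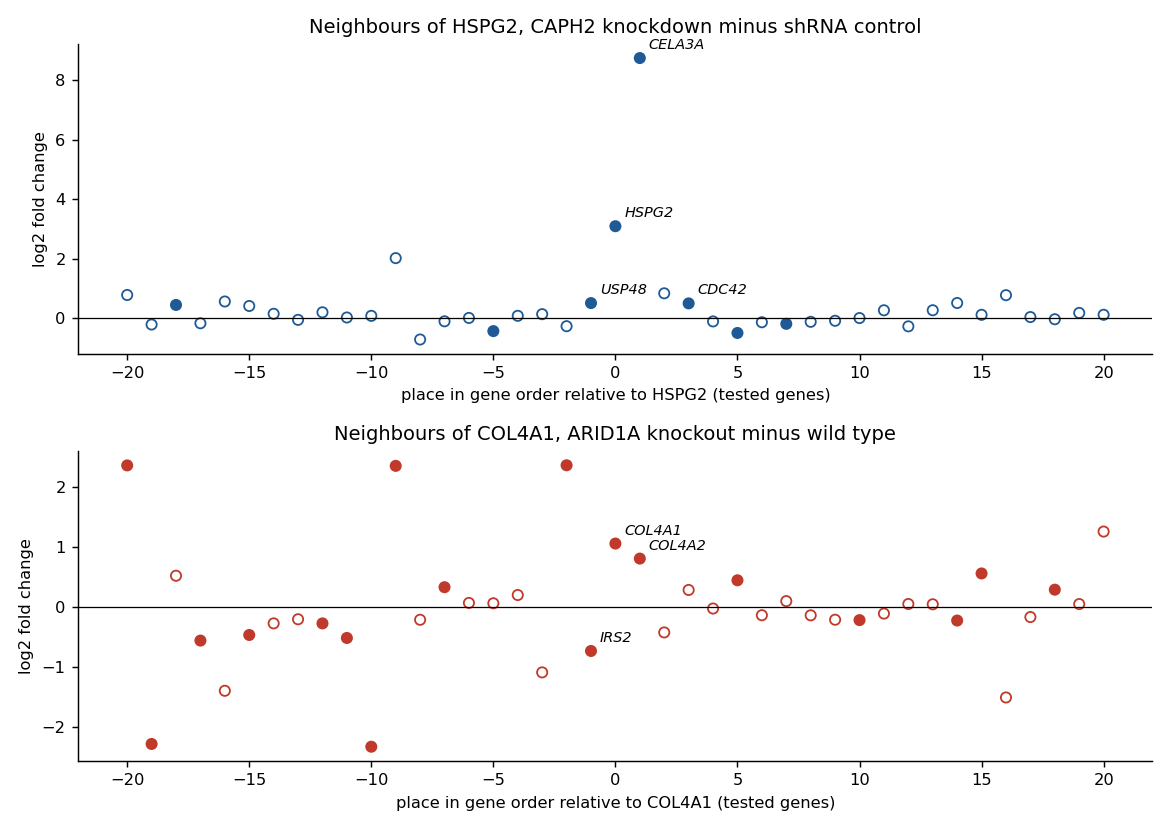
Log2 fold changes (vertical axes) of tested genes by their place in gene order (horizontal axes, 0 is HSPG2 above and COL4A1 below), for CAPH2 knockdown minus shRNA control above and ARID1A knockout minus wild type below. Filled points have an adjusted p under 0.05. HSPG2 (3.10) is flanked by USP48 (0.51) and CELA3A, and COL4A1 (1.07) and COL4A2 (0.82) by IRS2 (−0.73) and RAB20 (−0.42).

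The partners of these proteins were read from lists of other basement membrane proteins, collagen processing, heparan sulfate synthesis, receptors and proteases. Counts are genes that rose and fell in the edgeR test, to be set beside the shares of all genes given above. They rest on pairs of libraries: without any single library of the comparison, genes called in the knockdown numbered 1360 to 1524 in place of 2639, and without control library 1 or 2, list genes called between control and wild type numbered 23 and 24 in place of 40. The median over all genes tested was 0.00 in each comparison. Of 23 other basement membrane genes tested, 9 rose and 13 fell in the knockout (median −0.62), 5 rose and 9 fell in the knockdown (median −0.30), and 13 rose and 2 fell between shRNA control and wild type (median 0.33). LAMA4, a laminin chain, held 1 count over both wild-type libraries and stood at 29.8 CPM in knockout cells. LAMA2, another laminin chain, rose there (2.02, SE 0.24), and EFEMP1, or fibulin-3 (−2.57, SE 0.09), and LAMB3, a chain of laminin-332 (−1.58, SE 0.07), fell. In the knockdown LAMA3 (−1.51, SE 0.06) and the collagen VI gene COL6A2 (−1.47, SE 0.07) fell. LAMA4 rose there too (2.16, SE 0.51), from 1 and 9 counts to 24 and 18, but did not pass with only the 4 libraries compared or without control library 1 or knockdown library 1. Between control and wild type COL4A3 (1.04, SE 0.17) and LAMA3 (0.93, SE 0.06) rose, and the integrin ligand NPNT (−0.59, SE 0.12) and the fibulin FBLN1 (−0.24, SE 0.07) fell. NPNT did not pass without control library 1, nor FBLN1 with only the 4 libraries compared or without wild-type library 2 or either control library.

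Of 21 tested genes that fold, modify, export and cross-link collagen, 4 rose and 5 fell in the knockout (median 0.03), 5 rose and 2 fell in the knockdown (median 0.10), and 5 rose and 2 fell in the control against the wild type (median 0.12). PXDN, the peroxidase that links collagen IV trimers through sulfilimine bonds, fell from 14.5 and 15.2 CPM in wild-type to 0.795 and 0.601 CPM in knockout libraries (−4.41, SE 0.16, edgeR adjusted p = 3.68e-09), while its substrates COL4A1 and COL4A2 were higher. PXDN stood at 10.7 and 10.8 CPM in control and at 12.5 and 13.2 CPM in knockdown libraries. LOXL3, a lysyl oxidase, fell (−0.67, SE 0.15), and MIA2 (0.43, SE 0.06), which helps to export collagen, and CRTAP (0.40, SE 0.07), a part of the prolyl 3-hydroxylase complex, rose. P4HA1, the catalytic subunit of prolyl 4-hydroxylase, rose in the knockdown from 118 and 119 CPM to 355 and 352 CPM (1.58, SE 0.05, edgeR adjusted p = 1.1e-08). It had already risen from 51.9 and 54.0 CPM in the wild type to the control (1.16, SE 0.06, edgeR adjusted p = 3.53e-07), and stood at 49.9 and 52.2 CPM in the knockout. QSOX1, a sulfhydryl oxidase, rose (0.55, SE 0.09) and LOXL2, which cross-links collagen IV, fell in the knockdown (−1.77, SE 0.28). P3H2, a prolyl 3-hydroxylase, fell there by 0.34 on the log2 scale (SE 0.08), but did not pass without control library 1 or knockdown library 2. Between control and wild type QSOX1 rose (0.91, SE 0.10), and PXDN (−0.46, SE 0.11) and P4HA2 (−0.29, SE 0.08) fell, but neither passed with DESeq2 or without wild-type library 2 or either control library, nor P4HA2 with only the 4 libraries compared.

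Heparan sulfate genes bear on the sugar chains of HSPG2, AGRN and COL18A1. Of 18 tested, 6 rose and 4 fell in the knockout (median 0.07), 0 rose and 4 fell in the knockdown (median 0.01), and 4 rose and 1 fell in the control against the wild type (median 0.06). EXT1, a polymerase of the chain, rose in the knockout from 17.4 and 16.9 CPM to 82.3 and 86.5 CPM (2.30, SE 0.09, edgeR adjusted p = 6.22e-09) and fell in the knockdown from 22.8 and 19.0 CPM to a mean of 12.1 CPM (−0.79, SE 0.09, edgeR adjusted p = 0.000146). HS3ST1, a sulfotransferase, rose in the knockout (2.15, SE 0.11), where EXTL3 (−0.63, SE 0.13), which starts the chain, and SULF2 (−0.46, SE 0.06), a sulfatase that trims it, fell. NDST1, which deacetylates and sulfates the chain, fell in the knockdown (−0.52, SE 0.08). Between control and wild type NDST2 (1.03, SE 0.25) and B3GALT6 (0.52, SE 0.15) rose and HS2ST1 fell (−0.25, SE 0.07), and none of these 3 passed without wild-type library 2 or without control library 2. B3GALT6 also did not pass with DESeq2 or without any other single library of the comparison, nor HS2ST1 without control library 1.

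Of 19 receptor genes tested, 3 rose and 8 fell in the knockout (median −0.29), 5 rose and 6 fell in the knockdown (median −0.07), and 3 rose and 5 fell in the control against the wild type (median −0.09). ITGA1, the collagen IV-binding integrin subunit, fell in the knockout (−1.65, SE 0.15), as did LRP4, the agrin receptor (−1.42, SE 0.14), and ADGRG6, an adhesion receptor that binds collagen IV, rose (2.45, SE 0.08). ITGA6, a laminin-binding subunit, rose by 0.29 (SE 0.09), but did not pass with DESeq2, with only the 4 libraries compared, or without wild-type library 1 or either knockout library. ITGA2, another collagen-binding subunit, rose in the knockdown from 26.9 and 28.7 CPM to 92.8 and 92.7 CPM (1.74, SE 0.06, edgeR adjusted p = 1.37e-08). Between wild type and control ITGA2 fell from 72.3 and 70.4 CPM (−1.36, SE 0.06, edgeR adjusted p = 3.09e-07). DDR2, a collagen receptor kinase, fell in the knockdown (−1.08, SE 0.14) and in the control against the wild type (−1.43, SE 0.12). ITGB5 rose (0.93, SE 0.18) and ITGB3 fell (−1.05, SE 0.06) in the knockdown. Between control and wild type ITGA6 (0.50, SE 0.09) and the laminin receptor BCAM (0.47, SE 0.12) rose, BCAM not with DESeq2 or without wild-type library 2 or either control library.

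Of 16 protease and inhibitor genes tested, 5 rose and 6 fell in the knockout (median −0.24), 4 rose and 5 fell in the knockdown (median 0.16), and 3 rose and 2 fell in the control against the wild type (median 0.14). CTSS, or cathepsin S, rose in the knockout (3.53, SE 0.24), as did PLAU, the urokinase gene (2.14, SE 0.07). The collagenase gene MMP1 fell from 59.2 and 53.6 CPM to 1.37 and 1.93 CPM (−5.09, SE 0.14, edgeR adjusted p = 4.63e-10), and MMP10, a stromelysin, fell too (−4.02, SE 0.56). In the knockdown PLAU fell (−2.37, SE 0.09), as did MMP1 (−0.80, SE 0.11). CTSS rose there (1.18, SE 0.23), but did not pass without control library 2. TIMP1, an inhibitor of these proteases, rose by 0.34 (SE 0.09), but did not pass without either control library or knockdown library 1. Between control and wild type CTSB (0.69, SE 0.05) and ADAMTS1 (0.36, SE 0.05) rose, and MMP1 (−1.54, SE 0.10) and MMP7 (−0.21, SE 0.05) fell, MMP7 not with only the 4 libraries compared or without control library 1. MMP2 and MMP9, the collagen IV-degrading gelatinases, held 0 to 4 counts in every library and were not tested.

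**Figure D5:**
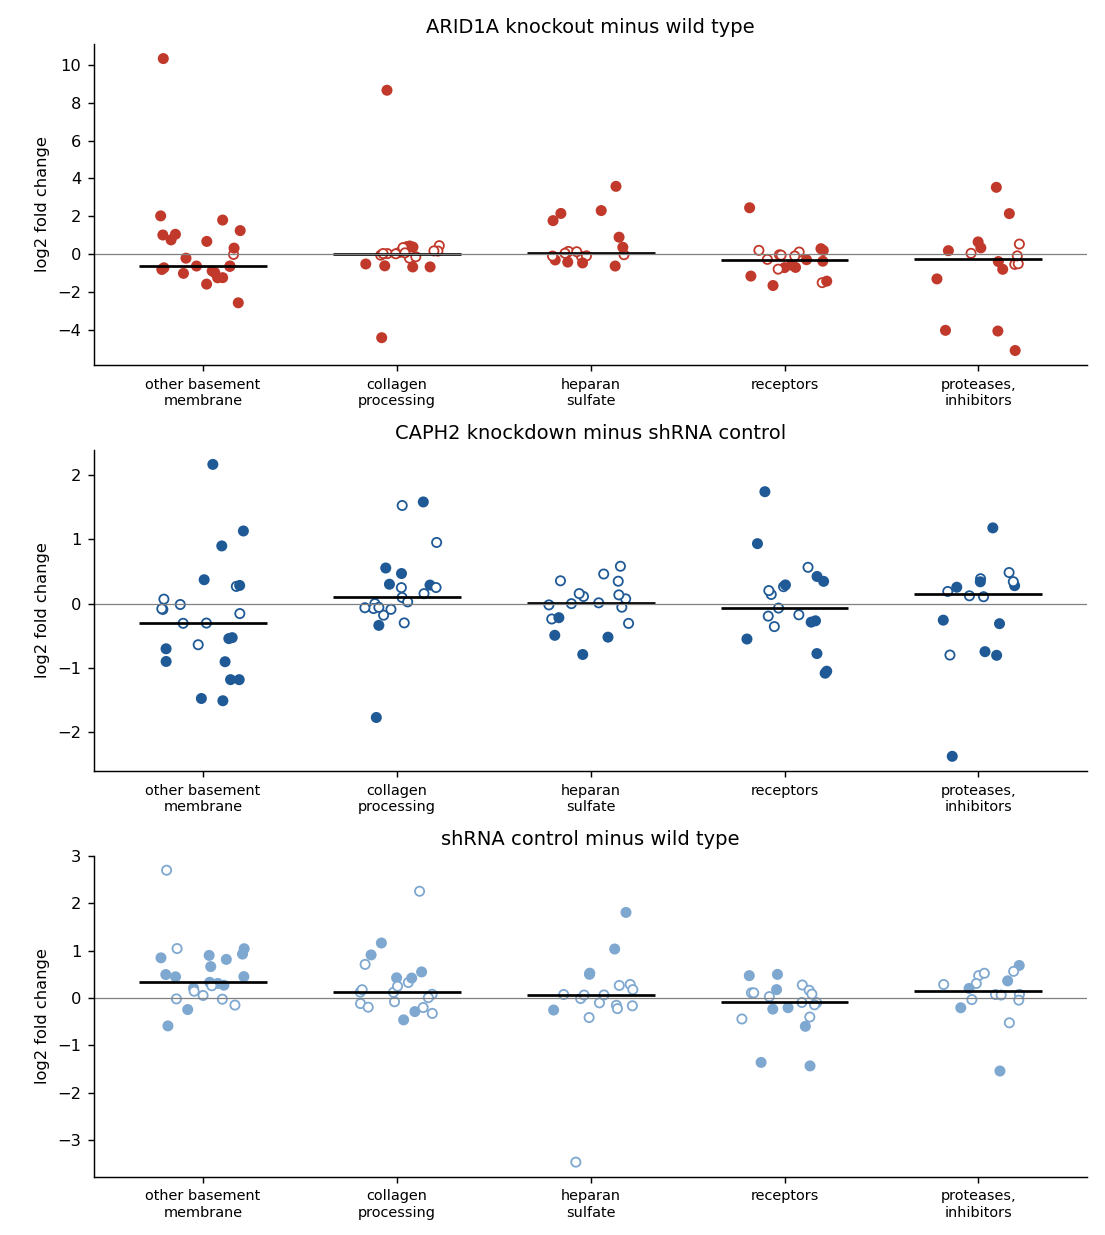
Log2 fold changes (vertical axes) of the tested genes of 5 lists (horizontal axes: other basement membrane proteins, collagen processing, heparan sulfate synthesis, receptors, proteases with their inhibitors) in the 3 comparisons. Filled points have an adjusted p under 0.05, and black lines are medians. In the knockout the basement membrane list has its median at −0.62 and in the control against the wild type at 0.33.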

How the data were processed

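Expected counts for each Ensembl ID and library were deposited by the authors in a single table, as whole numbers. Per the submitters' processing notes, they came from Bowtie2 and RSEM 1.2.12 on hg19. The annotation release is not given in the sources used here. IDs were named from a table of Ensembl IDs (51959 of 57736) and GENCODE 29 (342 more), which also gave gene order and transcript length. Printed sequences and positions are GRCh38.p14, not the build of the counts. RSEM shares reads between similar genes. The test was that of edgeR 4.0.16 under R 4.3.3 (filterByExpr, TMM, quasi-likelihood F-test on 4 group means, all 8 libraries, Benjamini-Hochberg over 16657 genes), checked on data with known answers. Levels per length use the longest transcript, in place of the planned median length, which short fragments make too small (865 of 14327 bases for HSPG2). The 9 genes, lists and tests were chosen with earlier results of these data known. The text names the 9 genes; per list and comparison, among called genes with a mean of at least 1 CPM, up to 2 rises and 2 falls; 5 genes most like COL4A1 and like the most variable member (mean at least 10 CPM); ARID1A and NCAPH2. Other scalings, DESeq2 1.42.0, no filter, fewer libraries and a replicate block were tried.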

Additional observations from a re-analysis of the deposited data

How the results depend on the processing

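Of 210 values of the members' log2 fold changes under alternatives (2 other scalings, DESeq2, no filter, only the 4 libraries compared, a replicate block, each library left out), 196 kept their direction and their side of the threshold, 5 lost it, 2 gained it and 7 changed sign. The sign changes were of values near 0, on leaving out 1 library, and the cause was not tested: HSPG2 ran from −0.26 to 0.22 in the knockout and from −0.31 to 0.18 between control and wild type, COL4A5 from −0.055 to 0.21 in the knockdown and NID2 from −0.0064 to 0.0306 in the knockdown. ARID1A between control and wild type ran from −0.31 to 0.15. Leaving out 1 library gave 1360 to 1524 genes called in the knockdown (2639 with all), 3928 to 5651 in the knockout (5751) and 1553 to 3410 between control and wild type (3205), where 3 to 5 members and 23 to 35 list genes were called. With the replicate number as a block, 5500, 2483 and 3026 genes were called in the knockout, the knockdown and the control against the wild type, and the same numbers of members (6, 3 and 5). Libraries with the same number did not deviate together (correlation 0.03 for wild type and knockout, −0.02 for control and knockdown), so the numbers were not taken as pairs. With the median transcript length the ratio of COL4A2 to COL4A1 was 0.660, 0.555, 0.820 and 0.724 in wild-type, knockout, control and knockdown cells. With 2 libraries a group, calls near the threshold turn on 1 library (40 of 300 counts per list and direction moved by over 1.5 times under an alternative), and for COL4A6 and NID1 the depth limits any comparison.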

Other observations

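Genes whose log2 CPM ran most like that of COL4A1 over the 8 libraries, among 8056 genes with a mean of at least 10 CPM, were PLS3, an actin bundler (Pearson r = 0.992), RNF182, a ubiquitin ligase (0.988), ZDBF2, an imprinted gene (0.988), MECOM, a transcription factor (0.986), and TMBIM6, a membrane protein of the endoplasmic reticulum (0.984). RNF182 stood at 32.7 ± 2.46 CPM in wild-type, 105 ± 1.49 in knockout, 57.5 ± 0.202 in control and 94.3 ± 9.83 CPM in knockdown cells, and MECOM at 109 ± 8.37, 194 ± 0.267, 146 ± 3.76 and 196 ± 1.67 CPM. Like COL4A1, both were lowest in the wild type and intermediate in the control. The 8 libraries form 4 groups of 2, so r describes little more than the order of 4 group levels.

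Genes most like HSPG2 were CAMK1, a calmodulin-dependent kinase (r = 0.989), ADAM9, a metalloproteinase (0.988), FIG4, a phosphoinositide phosphatase (0.988), OXR1 (0.986) and CENPT, a kinetochore protein (0.986). CAMK1 stood at 28.5 ± 2.09 CPM in wild-type, 27.1 ± 0.0962 in knockout, 30.2 ± 0.536 in control and 138 ± 3.19 CPM in knockdown cells, and CENPT at 11.8 ± 1.33, 10.1 ± 0.458, 12.6 ± 0.513 and 45.0 ± 2.33 CPM. These genes share with HSPG2 a mean that was highest in the knockdown among the 4 groups.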
